A study of Homo sapiens with 4 samples.

Results

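The genes described here make serine from a glycolytic intermediate and pass its side-chain carbon into the folate cycle, together with asparagine synthetase. They are PHGDH, PSAT1, PSPH, SHMT1, SHMT2, MTHFD1, MTHFD2, MTHFD1L and ASNS, 9 of the 19775 genes that the array's annotation names through probe sets with a single gene. All 19 probe sets annotated to exactly 1 of these genes are covered, of 41091 such probe sets on the array, and 5 further probe sets that list a member beside other genes were not used. The members were selected on measured values, the signal ratios of both contrasts of the study, hMOF siRNA against scramble siRNA and H1299 against A549. Their values in these contrasts are therefore given as a description, without a test of their own.

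PHGDH, the first enzyme of serine synthesis, was lower with hMOF siRNA in both lines, at 0.443 of its scramble signal in A549 and 0.323 in H1299. No other member was 2-fold apart between the siRNAs in either line. ASNS, MTHFD2 and PSAT1 lay on opposite sides in the lines, below their scramble level in A549 and above it in H1299. Among probe sets bright enough to test, that of ASNS was the furthest apart between the lines, higher in H1299 by a ratio of 1.81 with scramble siRNA and 3.65 with hMOF siRNA.

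Human non-small cell lung cancer lines were used. A549 is an adenocarcinoma line, and H1299 comes from a metastatic lymph node. Both were grown in medium with 10% fetal bovine serum and received either a scramble siRNA as control or one against hMOF, the histone H4 acetyltransferase encoded by KAT8. Each of the 4 combinations has 1 array, so no group was replicated and the lines are the only repeats of the siRNA comparison. Control and hMOF siRNA cells alike were transfected with a cationic lipid reagent. How long the cells were kept after transfection, how many cultures each array stands for and which siRNA sequences were used are not stated in the labels.

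Serine is made in the cytosol in a short chain. PHGDH oxidises 3-phosphoglycerate, PSAT1 moves an amino group from glutamate onto the product, and PSPH removes the phosphate. The serine hydroxymethyltransferases SHMT1, in the cytosol, and SHMT2, in mitochondria, then split serine into glycine and a carbon unit carried on tetrahydrofolate. MTHFD2 and MTHFD1L carry that unit through to formate inside mitochondria, and MTHFD1 takes formate back up into folates in the cytosol, where it serves purine, thymidylate and methionine synthesis. ASNS amidates aspartate to asparagine. PHGDH, PSAT1, SHMT2, MTHFD2 and ASNS are textbook targets of ATF4, a transcription factor whose translation rises when amino acids are short. Lung cancer lines differ widely in how much PHGDH they express, and the NRF2 factor, which is active in A549 through loss of KEAP1 function, is known to act on this pathway through ATF4.

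The stretches just before the gene starts of ASNS, MTHFD2 and PHGDH are shown as examples. ASNS and MTHFD2 lay on opposite sides of their scramble levels in the lines, and PHGDH was lower in both. PSAT1 and SHMT1 also lay on opposite sides, and their stretches are not shown. Each stretch shown is the 250 bases before a start that RefSeq annotates in the GRCh38.p14 assembly. It runs 5′ to 3′ on the gene's own strand, in lower case. ASNS has another annotated start, which is not shown. Capitals mark the letters TGATGNAA, the core of the composite element that ATF4 binds with C/EBP proteins, searched on both strands.
ASNS, chr7:97872409-97872658, minus strand: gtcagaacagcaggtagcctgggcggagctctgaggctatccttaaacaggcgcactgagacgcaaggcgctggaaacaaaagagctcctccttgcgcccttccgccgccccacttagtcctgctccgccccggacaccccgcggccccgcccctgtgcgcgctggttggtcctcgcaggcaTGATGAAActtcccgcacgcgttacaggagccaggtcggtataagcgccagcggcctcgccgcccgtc
MTHFD2, chr2:74198365-74198614, plus strand: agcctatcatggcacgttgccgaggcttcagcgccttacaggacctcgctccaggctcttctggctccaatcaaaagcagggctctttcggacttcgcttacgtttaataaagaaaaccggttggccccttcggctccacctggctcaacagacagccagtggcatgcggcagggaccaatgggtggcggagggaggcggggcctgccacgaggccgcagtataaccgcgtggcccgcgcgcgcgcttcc
PHGDH, chr1:119711684-119711933, plus strand: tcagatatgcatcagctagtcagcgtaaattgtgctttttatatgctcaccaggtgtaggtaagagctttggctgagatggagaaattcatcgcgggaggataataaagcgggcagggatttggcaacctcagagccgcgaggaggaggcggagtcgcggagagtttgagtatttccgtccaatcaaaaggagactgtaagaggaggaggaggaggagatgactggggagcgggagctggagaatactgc

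The ASNS stretch holds the letters once, as TGATGAAA from 68 to 61 bases before the start, and those of MTHFD2 and PHGDH do not hold them. Windows of 300 bases, from 250 before to 50 after a start, were available for 7 members, in 11 windows because ASNS and MTHFD1L have several annotated starts. TGATGNAA was found in 4 of the 11, which belong to ASNS and MTHFD1L, against 3.6% of all 35116 windows. Of the 4 MTHFD1L windows, 3 overlap and share 1 such match, and the other holds none. The window at the ASNS start that is not shown holds none either. The E-box letters CACGTG, bound by MYC family factors, were found for MTHFD1 and MTHFD1L, against 7.3% of all windows. The letters TGACNNNGC, the core of the antioxidant response element bound by NRF2, were found for MTHFD2, from 7 to 15 bases after its start and so outside the stretch shown, against 13.3% of all windows. A match is a description of the letters, not of binding. PSPH and SHMT2 are named only.

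The array labels were checked first. KAT8 stood at 402 in A549 scramble cells and 106 after its siRNA, and H1299 gave 241 and 61.8 in the same order. On 2 arrays the labels disagree on the siRNA, and groups follow the source names. The median signal of the arrays lay between 73.3 and 75.4. The 6 epithelial markers summed to 28772 and 26546 on the A549 arrays and to 3740 and 2821 on the H1299 arrays (scramble and hMOF siRNA), and CDH1 and KRT19 lay under the offset of 29.03 on both H1299 arrays. The 4 mesenchymal markers summed to between 19336 and 25670 on all 4 arrays, but single markers differed between the lines in opposite directions. FN1 (11066 and 10119 in A549, 2494 and 1855 in H1299) and CDH2 were higher in A549. VIM (9367 and 11326 in A549, 15787 and 15594 in H1299) and ZEB1 were higher in H1299. Sums for other cell types ran from 166 to 261 for 4 of 5 leukocyte markers, with LYZ under the offset on all arrays, and from 340 to 380 for 3 endothelial markers. The 4 fibroblast markers summed to 696 and 1364 in A549 and to 150 and 165 in H1299. COL1A1 makes up most of the A549 sums at 541 and 1191, and the part of these marker differences in the results was not tested. The 3'/5' signal ratio of ACTB, which rises as RNA is degraded, was lower with hMOF siRNA in both lines, 3.11 against 2.78 in A549 and 2.89 against 2.64 in H1299. The same ratio of GAPDH was 1.18 against 1.20 in A549 and 1.10 against 1.09 in H1299. The part of these ratios in the siRNA results was not tested.

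**Figure D1:**
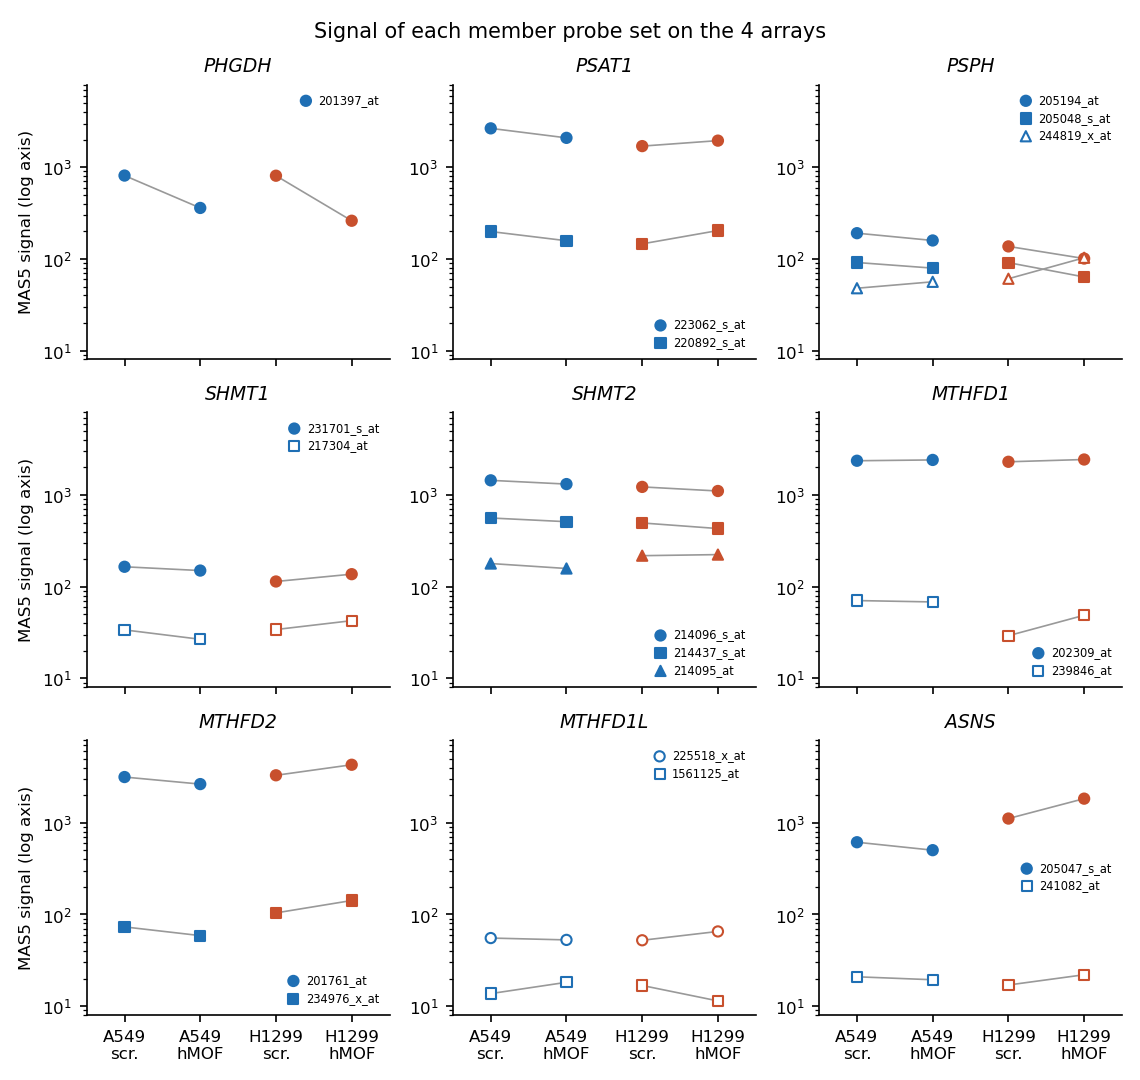
MAS5 signal (log axis) of each of the 19 member probe sets on the 4 arrays, 1 panel per gene, with A549 in blue and H1299 in orange; scr. is scramble siRNA, hMOF is hMOF siRNA, and each point is 1 array. Open symbols are probe sets whose mean signal lay under the minimum of 78.1. PHGDH was at 812 and 809 with scramble and at 360 and 261 with hMOF siRNA.

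Signals below are linear intensities per probe set. Ratios on the log2 scale are of signal plus an offset of 29.03, which shrinks ratios of dim probe sets. Of the 19 member probe sets, 13 had a mean signal over the 4 arrays at or above the minimum of 78.1 used for testing, and they represent 8 of the 9 genes. Signals of different probe sets cannot be compared as levels, since each probe set has its own response.

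Within the serine chain, PHGDH (probe set 201397_at) gave 812 and 360 in A549 (scramble, then hMOF siRNA, the order used throughout) and 809 and 261 in H1299. Both scramble arrays were high and nearly equal, and both hMOF siRNA arrays were low, so the siRNA groups did not overlap. The log2 ratio was −1.11 in A549 and −1.53 in H1299, a mean of −1.32 ± 0.30 (SD, n = 2 lines). Ranked among all 12830 genes tested, PHGDH lay at percentile 0.846 of the A549 ratios and at percentile 0.479 of the H1299 ratios. PHGDH is measured by this probe set alone. In bulk RNA, fewer cells with the transcript and less transcript per cell cannot be told apart.

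PSAT1, the transaminase of the second step, has 2 probe sets that behaved alike. The brighter, 223062_s_at, had signals of 2658 and 2094 in A549 and of 1702 and 1953 in H1299. The dimmer, 220892_s_at, had 199 and 158 in A549, against 146 and 204 in H1299. In both probe sets the hMOF siRNA array was the lower one in A549 and the higher one in H1299, and the siRNA groups overlapped. The log2 ratios were −0.34 and 0.20 for the brighter probe set and −0.29 and 0.41 for the dimmer (A549 and H1299).

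PSPH, the phosphatase of the last step, had signals of 191 and 159 in A549 and of 137 and 101 in H1299 on its brightest probe set, 205194_at. The H1299 arrays were the lower ones, and within each line the hMOF siRNA array was below its scramble array. The log2 ratios were −0.22 and −0.36, and the probe set 205048_s_at gave −0.15 and −0.38. Probe set 244819_x_at lay under the signal minimum and pointed the other way, at 0.15 and 0.55. The _x_at suffix marks probes with possible matches elsewhere in the transcriptome.

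Of the hydroxymethyltransferases, mitochondrial SHMT2 had signals of 1447 and 1317 in A549 and of 1227 and 1107 in H1299 on probe set 214096_s_at. All 4 arrays were close to each other, and the log2 ratios were −0.13 and −0.14. Probe set 214437_s_at gave −0.13 and −0.19, and 214095_at gave −0.15 and 0.04. The cytosolic SHMT1 had signals of 165 and 150 in A549 and of 114 and 137 in H1299 on probe set 231701_s_at, with log2 ratios of −0.12 and 0.22. On this probe set the A549 arrays were the higher ones, whichever siRNA was used, but the line difference was not called (limma adjusted p = 0.146). The other SHMT1 probe set, 217304_at, was dim on all arrays, from 26.7 to 42.6, and gave −0.17 and 0.18. Its ratio of H1299 to A549 was 1.01 with scramble and 1.59 with hMOF siRNA.

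MTHFD1, the cytosolic enzyme with 3 folate activities, was nearly level on its bright probe set. Probe set 202309_at had signals of 2367 and 2416 in A549 and of 2306 and 2442 in H1299, log2 ratios of 0.03 and 0.08. Its dim probe set 239846_at ran from 29.2 to 70.6. MTHFD2, the mitochondrial dehydrogenase and cyclohydrolase, had signals of 3158 and 2645 in A549 and of 3300 and 4300 in H1299 on probe set 201761_at. The H1299 hMOF siRNA array was the highest and the A549 hMOF siRNA array the lowest, with the scramble arrays between them. The log2 ratios were −0.25 and 0.38, and the much dimmer 234976_x_at, with signals of 73.2 and 58.8 in A549 but 104 and 142 in H1299, gave −0.22 and 0.36. MTHFD1L, which makes formate in mitochondria, had no probe set over the signal minimum. Its signals ran from 52.3 to 65.3 on 225518_x_at and from 11.4 to 18.2 on 1561125_at. It was therefore not tested, and its ratios rest on dim signals.

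ASNS, on probe set 205047_s_at, had signals of 614 and 503 in A549 and of 1113 and 1835 in H1299. Both H1299 arrays were higher than both A549 arrays, and the hMOF siRNA array was at the low end in A549 and at the high end in H1299. The log2 ratios of hMOF siRNA to scramble were −0.27 in A549 and 0.71 in H1299, at percentiles 19.2 and 96.6 of all genes tested. The difference of 0.98 between these ratios was not tested, as each line has 1 array per siRNA. A second probe set, 241082_at, was at 17.0 to 22.0 on all arrays, under the offset.

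**Figure D2:**
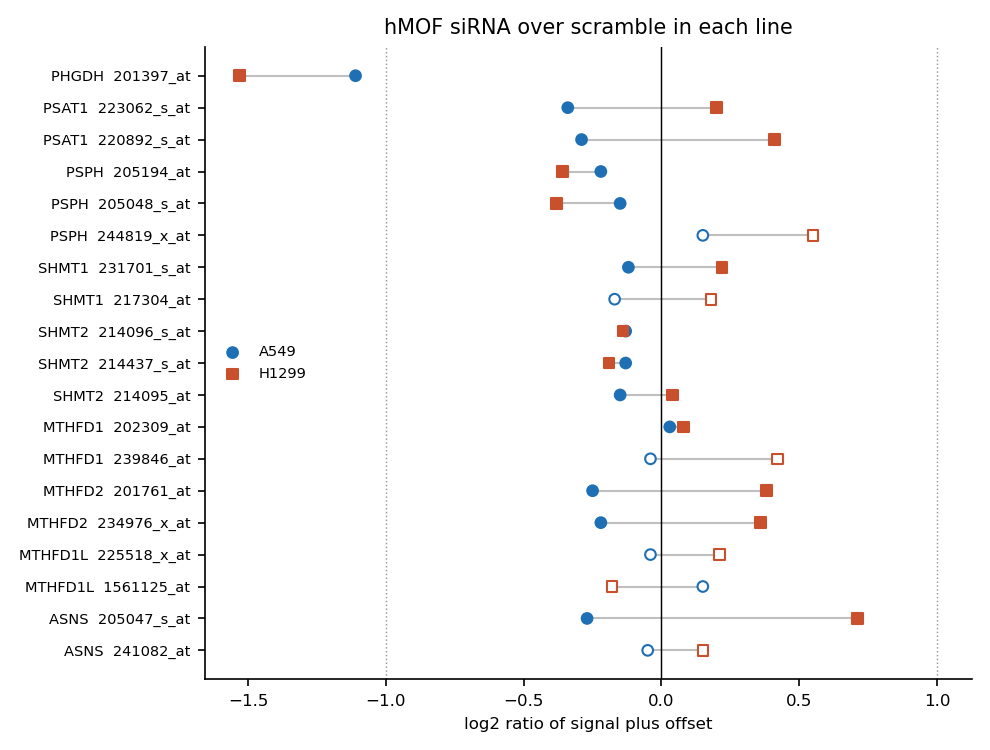
Log2 ratio of hMOF siRNA to scramble (signal plus offset) for each member probe set, A549 as blue circles and H1299 as orange squares, each symbol 1 array over 1 array with no error of its own. Open symbols lay under the signal minimum, and dotted lines mark 2-fold; PHGDH lies beyond the 2-fold line in both lines, and ASNS runs from −0.27 to 0.71.

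At a fixed size of 2-fold on the same scale, 1 of the 19 probe sets was lower in A549 and 1 in H1299, the PHGDH probe set each time, and none was higher. Among all 41091 probe sets with a single gene, 0.995% were 2-fold apart in either direction in A549 and 1.92% in H1299, and 0.392% were 2-fold lower in both lines. Over both lines, limma with cell line as a block called 1 of the 8 members tested, PHGDH, lower, against 3.57% of all genes called in either direction, 2.41% lower and 1.16% higher. As the members were chosen with this contrast in view, nothing is read from these counts. The mean log2 ratios of the other members tested ran from −0.29 ± 0.09 for PSPH to 0.22 ± 0.69 for ASNS (SD, n = 2 lines).

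In A549, 12 of the 13 member probe sets over the signal minimum lay below 0, the exception being MTHFD1, and their median log2 ratio was −0.22. Of all probe sets over the minimum, 55.6% lay below 0 in A549, with a median of −0.03. In H1299, 8 of the 13 lay above 0, with a median of 0.08, against 48.9% of all and a median of −0.01. At the gene level, 4 of the 8 members tested, PSAT1, SHMT1, MTHFD2 and ASNS, were below 0 in A549 and above 0 in H1299. Of all genes tested, 16.9% had that combination. It was seen in 7 of the 13 member probe sets over the minimum, against 18.6% of all such probe sets. These shares describe members chosen on the same ratios.

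The comparison between lines set H1299 against A549 under each siRNA and used the same 4 arrays. With scramble siRNA, PHGDH was nearly equal, at a ratio of 0.997, the brighter MTHFD1 probe set stood at 0.974 and the brighter MTHFD2 probe set at 1.04. ASNS was higher in H1299 by a log2 ratio of 0.83, and PSAT1 was higher in A549 at −0.63 and −0.38 on its 2 probe sets. No member probe set was 2-fold apart between the lines with scramble siRNA, where 11.4% of all single-gene probe sets were. With hMOF siRNA 1 was, ASNS at 1.81, against 12.2% of all. With no offset 1 and 2 probe sets were 2-fold apart, the additions being the dim 239846_at of MTHFD1 with scramble and 234976_x_at of MTHFD2, at a ratio of 2.41, with hMOF siRNA. MTHFD2 and PSAT1 ratios between the lines differed with the siRNA as well. MTHFD2 stood at 0.70 and 0.96 in H1299 over A549 with hMOF siRNA, against 0.06 and 0.38 with scramble, and the brighter PSAT1 probe set stood at −0.10 against −0.63.

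Taking the siRNAs as repeats, limma called 2 of 8 members between the lines, against 52.4% of all genes, 25.1% higher in H1299 and 27.3% higher in A549, and nothing is read from this count either. ASNS was higher in H1299, at a mean log2 ratio of 1.32, and PSPH was higher in A549, at −0.47. With a gene's probe sets averaged, MTHFD2 was called and PSPH was not. PSPH probe set 205048_s_at differed less than the brightest one, at a ratio of 0.996 with scramble.

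**Figure D3:**
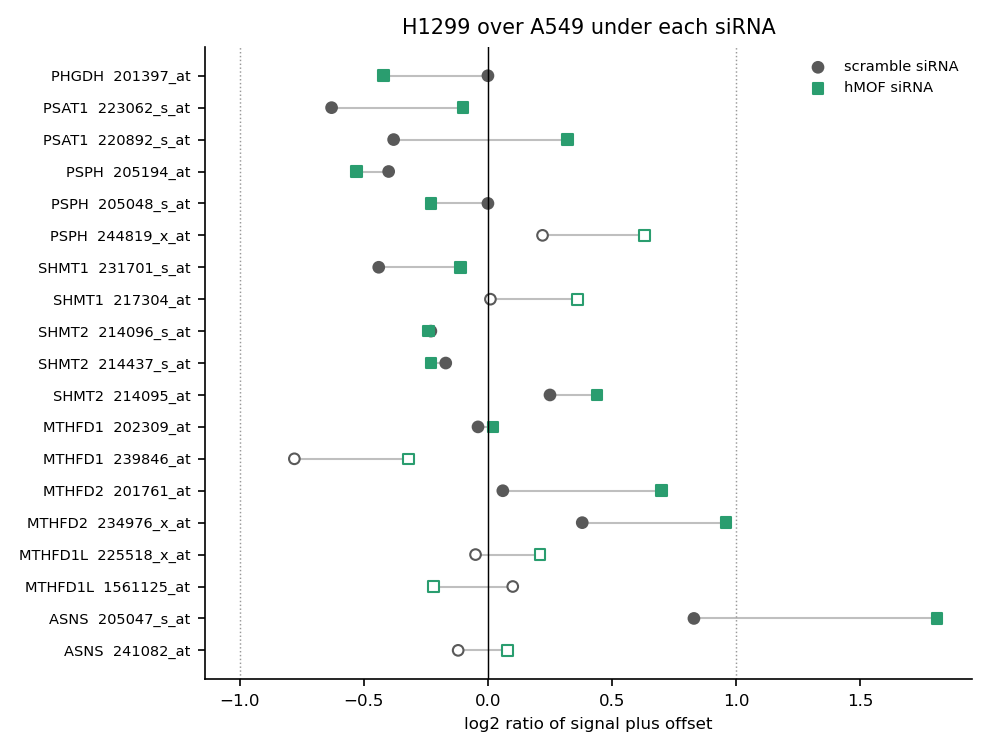
Log2 ratio of H1299 to A549 (signal plus offset) for each member probe set, scramble siRNA as grey circles and hMOF siRNA as green squares, each symbol 1 array over 1 array. Open symbols lay under the signal minimum and dotted lines mark 2-fold; ASNS runs from 0.83 to 1.81, and PHGDH from 0 to −0.42.

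Around this pathway, 122 genes on 10 lists, none of them members, were tested. With hMOF siRNA over both lines 7 of them fell and 0 rose by limma, and at an unadjusted p under 0.05 there were 23 lower and 8 higher. These are 18.9% and 6.56% of the 122, where 14.6% of all genes tested were lower and 9.13% higher at that p. By limma, 2.41% of all genes tested were called lower and 1.16% higher. None of the 7 calls held without cell line as a block, where each limma adjusted p was 1. Beside the members stands the glycine cleavage system, the mitochondrial complex that breaks glycine down into a folate-bound carbon. Of its 6 genes 2 fell. GLDC, the glycine decarboxylase, had signals of 431 and 146 in A549 and of 779 and 434 in H1299, with log2 ratios of −1.39 and −0.80 (limma adjusted p = 0.0492). GCSH, the lipoyl carrier protein of the complex, had 4540 and 2876 in A549 and 3994 and 2236 in H1299, log2 −0.65 and −0.83 (limma adjusted p = 0.0477), and its other probe set gave −0.78 and −0.96. Both calls were near the threshold and were lost with no signal filter or with median centring, and their adjusted p over 8 alternatives that kept the block ran from 0.0371 to 0.0584 for GLDC and from 0.0333 to 0.0514 for GCSH. The median of the list was −0.23 in A549 and −0.08 in H1299, against −0.02 and −0.01 for all genes tested.

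On the purine list, which holds salvage and ribose donor genes beside folate-dependent enzymes, 2 of 13 genes fell and none rose. At an unadjusted p under 0.05, 5 (38.5%) were lower and 0 higher, against 14.6% and 9.13% of all genes tested. HPRT1, the salvage enzyme that returns hypoxanthine and guanine to nucleotides, had signals of 4612 and 1810 in A549 and 4138 and 1967 in H1299, log2 −1.34 and −1.06 (limma adjusted p = 0.0315). PRPS2, which makes the ribose donor for purines, had 1439 and 834 in A549 and 1001 and 444 in H1299, log2 −0.77 and −1.12 (limma adjusted p = 0.0434). The folate-dependent purine enzymes GART, at −0.10 and 0.25, and ATIC, at −0.39 and −0.32, did not pass. Of the 13 genes, 5 (38.5%) were below 0 in A549 and above 0 in H1299, against 16.9% of all genes tested.

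In the methionine cycle list, 1 of 14 genes fell. It was AHCYL2, a relative of the enzyme that hydrolyses S-adenosylhomocysteine, with signals of 153 and 56.0 in A549 and 197 and 69.1 in H1299, log2 −1.10 and −1.21 (limma adjusted p = 0.0288). AHCY itself was at 0.04 and −0.12. Among 8 serine-using lipid genes, 1 fell. SERINC5, a member of a family of membrane proteins first linked to serine incorporation into lipids, had 2116 and 943 in A549 and 723 and 182 in H1299, log2 −1.14 and −1.83 (limma adjusted p = 0.0364). AHCYL2, HPRT1, PRPS2 and SERINC5 kept their calls under all 8 alternatives that kept the block, with adjusted p from 0.0177 to 0.0493.

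None of the 13 other folate genes passed for the siRNA. At an unadjusted p under 0.05, 3 (23.1%) were higher and 1 (7.69%) lower, against 9.13% and 14.6% of all genes tested. The mitochondrial serine transporter gene SFXN1, measured on an _x_at probe set, was at −0.75 and −0.52 (limma adjusted p = 0.0646). SFXN1 was higher in H1299 by a mean log2 ratio of 0.74 (limma adjusted p = 0.00679). Thymidylate synthase, TYMS, was also higher in H1299, with signals of 6060 and 7435 against 3026 and 3098 in A549 (mean log2 1.12, limma adjusted p = 0.00202). The proton-coupled folate transporter gene SLC46A1 was higher in A549, at 447 and 390 against 114 and 96.0 (mean log2 −1.74, limma adjusted p = 0.000403). In all, 8 of these 13 genes (61.5%) were called between the lines, against 52.4% of all genes tested.

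The ATF4 transcript was even across the arrays, with signals of 4668 and 4867 in A549 and 4709 and 5304 in H1299. Its log2 ratios were 0.06 and 0.17. The arrays do not measure ATF4 protein. Of the 19 genes on the ATF4 list, 1 fell and 0 rose. STC2, a secreted glycoprotein gene, had 714 and 306 in A549 and 357 and 190 in H1299, log2 −1.15 and −0.81 (limma adjusted p = 0.0389). Its second probe set over the minimum gave −0.37 and −0.03, and the call was lost when probe sets were averaged (mean log2 −0.59, limma adjusted p = 0.0694, where the other alternatives that kept the block began at 0.0275). The ATF4 list genes TRIB3, at −0.18 and −0.35, DDIT3, at −0.06 and 0.12, and SESN2, at 0.57 and 0.29, did not pass. At an unadjusted p under 0.05 this list had 1 lower (5.26%) and 2 higher (10.5%) genes, against 14.6% and 9.13% of all genes tested. The list's median was −0.01 in A549 and 0.02 in H1299.

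SLC7A11, the cystine transporter subunit, had signals of 3616 and 2937 in A549 and of 159 and 402 in H1299, log2 −0.30 and 1.19. SLC7A5, the large neutral amino acid transporter, was at −0.49 and 0.42, and its partner chain SLC3A2 at −0.27 and 0.37. Of 11 transporters tested, 9 were below 0 in A549 and 6 above 0 in H1299, with medians of −0.30 and 0.09. These are 81.8% and 54.5% of them, against 53.6% and 48.4% of all genes tested. Of 17 cytosolic tRNA synthetases, 13 (76.5%) were above 0 in H1299, with a median of 0.30, and 7 were below 0 in A549, with a median of 0.08. In neither list did a gene pass for the siRNA by limma. At an unadjusted p under 0.05 there were 3 lower (27.3%) and 1 higher (9.09%) transporters. Of the synthetases 1 (5.88%) was lower and 0 higher at that p. Of all genes tested, 14.6% were lower and 9.13% higher.

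Between the lines 45.5% of the transporters and 47.1% of the synthetases were called, both under the 52.4% of all genes. Of the transporters 5 were higher in A549 and 0 in H1299, led by SLC7A11 at a mean log2 of −3.53 (limma adjusted p = 0.00168) and SLC7A5 at −2.23 (limma adjusted p = 0.00183). Of the synthetases 8 were higher in H1299 and 0 in A549, led by VARS1 at 1.49 (limma adjusted p = 0.000797). The ATF4 list had 10 genes higher in A549 and 2 in H1299, the latter DDIT3 at 0.97 and SESN2 at 0.82. Its called genes make up 63.2% of the list. CBS and CTH, the enzymes that turn serine and homocysteine into cysteine, were higher in H1299, CBS at log2 ratios of 1.32 and 1.69 under the siRNAs (limma adjusted p = 0.00119) and CTH at 1.09 and 1.63 (limma adjusted p = 0.00274). Of the glycine cleavage list 3 genes (50%) were higher in H1299 and 0 in A549. Among them was LIAS, the lipoic acid synthase, with signals of 799 and 808 against 140 and 133. Of 11 genes for other non-essential amino acids 5 were higher in A549 and 2 in H1299, together 63.6%. They include ASS1, which joins citrulline to aspartate, at 455 and 427 in A549 against 25.6 and 23.5 in H1299. None of these 11 passed for the siRNA by limma. At an unadjusted p under 0.05, 2 (18.2%) were lower and 1 (9.09%) higher, against 14.6% and 9.13% of all genes tested. MTAP, the methionine salvage gene next to CDKN2A, had signals of 9.19 and 8.31 in A549, under the offset, and of 680 and 580 in H1299.

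**Figure D4:**
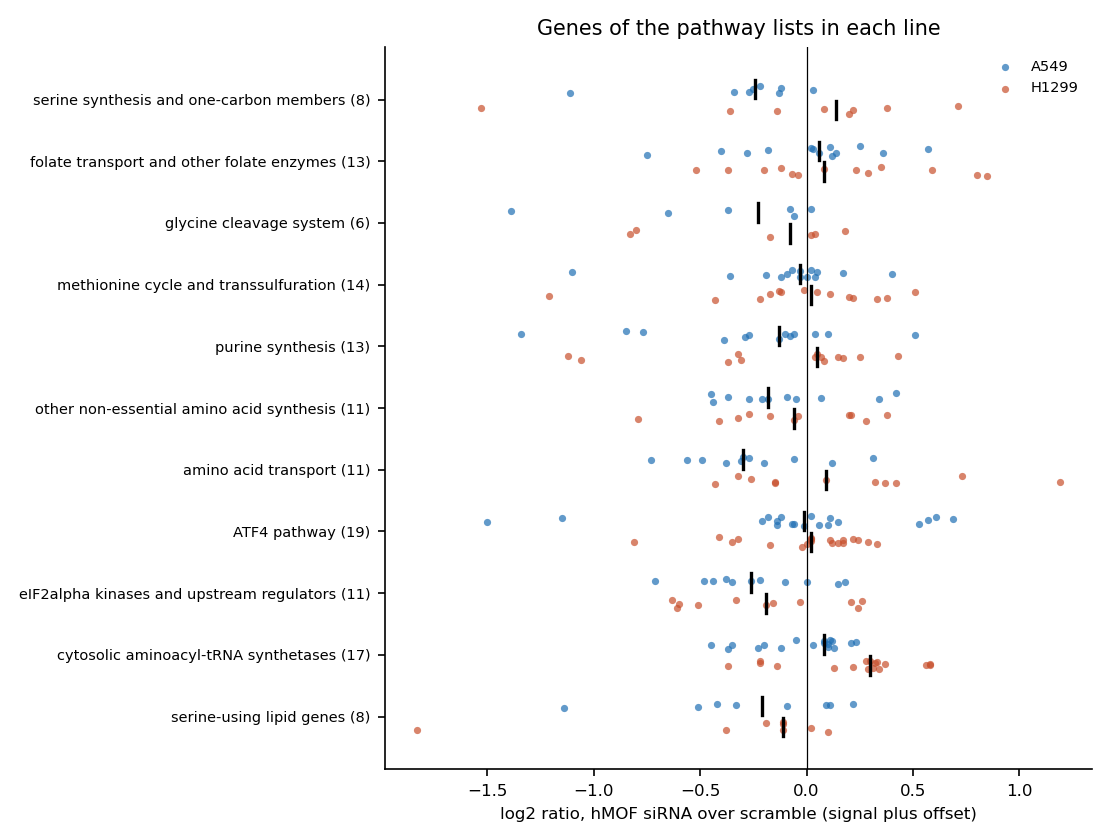
Log2 ratio of hMOF siRNA to scramble (signal plus offset) of every tested gene on the member list and the 10 pathway lists, A549 in blue above and H1299 in orange below, each point 1 gene from 1 array over 1 array; black bars are medians and numbers in brackets are genes tested. The member medians lie at −0.24 in A549 and 0.14 in H1299, and those of the tRNA synthetases at 0.08 and 0.30.

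Of the regulators, MYC had signals of 2220 and 1584 in A549 and 3018 and 2113 in H1299. Its log2 ratios were −0.48 and −0.51 (limma adjusted p = 0.0789). NFE2L2, which encodes NRF2, had signals of 2581 and 1895 in A549 and 2475 and 2975 in H1299 on its brightest probe set, log2 −0.44 and 0.26. Its other probe set over the minimum gave −0.59 and 0.01, so the higher H1299 signal was not seen there. The NFE2L2 probe set under the minimum gave −0.2 and −0.01. The eIF2alpha kinase gene EIF2AK4, whose product senses uncharged tRNA, was at −0.26 and −0.33. None of the 11 regulators tested passed for the siRNA by limma. At an unadjusted p under 0.05, 5 (45.5%) were lower and 0 higher, against 14.6% and 9.13% of all genes tested.

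The genes most like the 3 members with the widest range were found by root-mean-square distance between log2 values centred on each gene's own mean over the 4 arrays. For PHGDH the nearest were USP46 (distance 0.0491), PUS7 (0.0835) and LONRF1 (0.0897). PUS7 had signals of 1399 and 558 in A549 and 1444 and 464 in H1299. For ASNS they were ZNF253 (0.0655), CDC25A (0.0687) and ELOVL2-AS1 (0.0883), of which CDC25A had 306 and 283 in A549 and 619 and 1062 in H1299. In A549, ZNF253 (34 and 29.4, on an _x_at probe set) and ELOVL2-AS1 (33.8 and 31.7) lay near the offset of 29.03. For PSPH they were BRIP1 (0.0138), RYBP (0.0151) and TIMM50 (0.0217). With 4 arrays many genes share a profile, so this is a description only.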

How the data were processed

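Total RNA (6 ug per sample) was labelled with biotin and hybridised to Affymetrix arrays of 54675 probe sets, per the labels. The authors summarised each probe set as a linear signal intensity with MAS5, per the submitters' processing notes. Version, scaling target and detection calls of MAS5 are not stated in the labels, and such estimates scatter more among dim probe sets. The number of arrays limits the precision.

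Probe sets were named from the platform annotation. Symbols were checked through gene identifiers against RefSeq for GRCh38.p14, which changed 0 of them and lacked the identifier of 54 probe sets. The 62 control probe sets were left out. The offset was the 20th percentile of all signals (29.03) and the signal minimum the 50th percentile of probe set means (78.1). A gene's brightest probe set over the minimum stood for the gene. limma 3.58.1 in R 4.3.3 (lmFit, eBayes, Benjamini-Hochberg, threshold 0.05) was fitted to 12830 genes with terms for cell line and siRNA, 1 residual degree of freedom and 3.74 prior degrees of freedom. It was tested on simulated data in which the siRNA effect was the same in both lines. That test does not cover a response particular to a line. The p values reflect only how much these arrays vary, which may be technical. The residual of the limma fit is the difference between the lines in their response to the siRNA. Technical scatter and a response particular to a line cannot be told apart in it. Within a line there is no test. Named genes are all members, KAT8, list genes called for the siRNA, up to 4 a direction per list between lines, ATF4, NFE2L2, MYC and the nearest profiles; other list genes serve as examples and were chosen after their values were seen. The members and lists were chosen with earlier results of these data known. Alternatives were offsets of 0 and 56.4, no filter, quantile normalization, median centring, averaged probe sets, no _x_at probe sets, no block and a trend in eBayes. Figures were drawn with matplotlib 3.10.9.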

Additional observations from a re-analysis of the deposited data

Results flagged for a closer look

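Several member probe sets lay below scramble in A549 and above it in H1299 with hMOF siRNA, and the difference between lines was not tested, since each line has 1 array per siRNA. The H1299 log2 ratio exceeded the A549 ratio by 0.98 for ASNS, by 0.63 and 0.57 for the 2 MTHFD2 probe sets (201761_at and 234976_x_at), by 0.54 and 0.70 for those of PSAT1 (223062_s_at and 220892_s_at), by 0.33 for SHMT1 and by 0.19 for SHMT2 probe set 214095_at. The other SHMT2 probe sets, at −0.13 and −0.14 and at −0.13 and −0.19, lay below 0 in both lines.

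Of the named pathway genes, those on opposite sides in the lines and at least 2-fold apart were SLC7A11, by 1.49, and GDF15, a secreted stress-responsive gene measured on an _x_at probe set, by 1.67. GDF15 had signals of 504 and 160 in A549 and of 33.9 and 41.8 in H1299, the latter close to the offset.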

How the results depend on the processing

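All 32 member log2 ratios, of 8 genes in 4 contrasts, stayed on their side of 2-fold under the 7 alternatives of offset, filter, scaling and probe sets. Some of these could not move a ratio. With no filter or without _x_at probe sets each of these members kept the same brightest probe set. Averaging could not change PHGDH, SHMT1, MTHFD1 or ASNS, as only their brightest probe set was over the minimum. No siRNA ratio of a member changed sign; between lines, values near 0 did, for PHGDH (0.06 and 0.02 under quantile normalization and median centring) and MTHFD1 (0.04 under quantile normalization) with scramble siRNA, and for PSAT1 with hMOF siRNA (0.11 with averaged probe sets). Without the block for cell line, limma called 0 members, 0 pathway genes and 0 genes in all for the siRNA, with 1, 3 and 350 at an unadjusted p under 0.05. Without the siRNA block it called 1 member, 43 pathway genes and 4301 genes between lines, against 2, 69 and 6723. With no offset 1 member probe set, the dim 239846_at of MTHFD1, was 2-fold apart between lines with scramble siRNA, against 0, and with hMOF siRNA there were 2, ASNS and 234976_x_at of MTHFD2, against 1. This last comparison was added after seeing the data, and its count stayed at 1 under the 5 other alternatives run for it. Over all genes the siRNA calls split into 149 higher and 309 lower, and into 294 and 379 under quantile normalization. The fit with cell line as a block pairs the scramble and hMOF siRNA arrays of each line, and the labels give no replicate numbers for any other pairing. MTHFD1L, and the dim probe sets of PSPH, SHMT1, MTHFD1 and ASNS, lay under the signal minimum, where ratios are least certain.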
